A study of Mus musculus with 6 samples.

Results

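Stem cells and early progenitors hold their place in the bone marrow by a small set of surface molecules. The 9 genes described here encode integrin subunits (Itga4, Itgb1, Itgb7 and Itga6), 2 immunoglobulin-type integrin ligands (Vcam1 and Icam1), glycoproteins of the selectin and hyaluronan axis (Selplg and Cd44) and the chemokine receptor Cxcr4. They were chosen by name, with earlier results of these data known. All 9 were found by symbol among the 45706 genes of the count table. Expression was measured by RNA-seq in the LSK compartment (bone marrow cells negative for lineage antigens and positive for Sca-1 and c-Kit, a fraction with stem cells and early progenitors), with 1 library per mouse and 3 mice per genotype. Ctrl mice were Setd1b FD/+; RC/+ and cKO mice were Setd1b FD/FD; RC/+, where FD is the conditional allele with a loxP-flanked exon 5 and RC is the Rosa26-Cre-ERT2 allele. Both groups carried the Cre allele and received tamoxifen by gavage (4.5 mg per dose), so that Ctrl mice also had 1 recombined allele. The Cre line recombines in nearly all tissues, marrow stroma and vessels included, and LSK cells were sorted 3 days after the last dose. The groups were littermates, and all mice were C57BL/6 males of 16 weeks, except cKO mouse 3, which was 17 weeks old. The comparison addresses which transcripts change soon after Setd1b is deleted in the adult.

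Integrins are pairs of an alpha and a beta subunit that bind matrix or ligands on other cells, and the alpha4 subunit pairs with beta1 or beta7. The alpha4 beta1 pair binds VCAM-1 on stroma and endothelium, which is a main anchor of hematopoietic progenitors, and the alpha6 subunit forms laminin receptors. PSGL-1, the product of Selplg, lets cells roll on selectins, CD44 binds hyaluronan and, when suitably glycosylated, selectins, and CXCR4 is the receptor for CXCL12, the main chemokine that retains these cells in marrow.

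Setd1b encodes a histone H3 lysine 4 methyltransferase whose complex holds a subunit that binds unmethylated CpG, so the CpG content of the promoters is given here. No histone mark was measured in these libraries. Windows of 300 bases (250 before and 50 after the RefSeq start, GRCm38.p6) were matched for 6 of the 9 genes, all but Itga6, Vcam1 and Selplg. The Itgb1 window held 27 CpG, those of Cxcr4, Icam1 and Itga4 held 20, 19 and 10, and those of Cd44 and Itgb7 held 6 and 5. The median over all 32851 windows was 7, and 84.5% of them had fewer than Itgb1. The windows of both alpha4 partners are shown because they lie at opposite ends of this range. Itgb1 is at chr8:128685404-128685703 on the plus strand and Itgb7 at chr15:102231886-102232185 on the minus strand, each printed 5′ to 3′ on the strand of the gene with every CG in capitals:
Itgb1: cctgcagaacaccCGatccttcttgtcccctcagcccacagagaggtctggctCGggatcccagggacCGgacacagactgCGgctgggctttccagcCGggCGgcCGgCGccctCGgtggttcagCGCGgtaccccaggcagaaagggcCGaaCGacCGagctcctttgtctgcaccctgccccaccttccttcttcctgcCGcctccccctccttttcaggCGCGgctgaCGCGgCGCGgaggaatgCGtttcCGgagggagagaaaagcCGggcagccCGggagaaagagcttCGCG
Itgb7: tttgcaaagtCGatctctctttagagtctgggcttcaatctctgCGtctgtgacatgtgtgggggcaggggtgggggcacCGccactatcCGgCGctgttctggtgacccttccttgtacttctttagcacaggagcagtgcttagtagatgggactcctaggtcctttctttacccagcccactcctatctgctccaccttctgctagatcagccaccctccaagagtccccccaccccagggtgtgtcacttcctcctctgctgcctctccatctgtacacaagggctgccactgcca

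The letters GGAAATTCC, a form of the kB motif, were searched on both strands, and TATAAA on the strand of the gene. Icam1 was the 1 gene of the 6 with the first of them, which 0.317% of all windows hold, and Icam1 and Cxcr4 held TATAAA, as did 8.32% of all windows. The Icam1 window, at chr9:21015690-21015989 on the plus strand, is shown for this pair of matches, which stand in capitals:
Icam1: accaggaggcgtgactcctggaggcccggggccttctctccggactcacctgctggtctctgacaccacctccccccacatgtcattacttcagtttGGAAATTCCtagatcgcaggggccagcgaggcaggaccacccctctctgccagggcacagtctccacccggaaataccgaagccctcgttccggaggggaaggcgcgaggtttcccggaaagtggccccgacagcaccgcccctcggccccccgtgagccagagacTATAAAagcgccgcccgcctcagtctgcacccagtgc

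The libraries held between 13003573 and 21277519 counted reads. Of 15184 genes tested with edgeR's quasi-likelihood test, 1164 (7.67%) differed at a Benjamini-Hochberg adjusted p-value under 0.05 (DEGs), 589 (3.88%) higher and 575 (3.79%) lower in cKO. With a dependence on gene length taken out of each library, the split was 523 higher and 842 lower. Without Ctrl mouse 3, cKO mouse 2 or cKO mouse 3 there were 665, 604 and 739 DEGs. By numbers in the table header the libraries fall into 2 series, neither of them named by the labels, with Ctrl mouse 1 and cKO mice 1 and 2 in series 1 and the other 3 mice in series 2. The targeted gene ran against its label. Setd1b stood at 221, 194 and 223 CPM (reads of a gene per 1000000 counted reads, with TMM factors) in Ctrl mice 1, 2 and 3 and at 272, 288 and 314 CPM in cKO mice 1, 2 and 3, and the counts per gene cannot separate the deleted exon. Directions below therefore mean the libraries labelled cKO against Ctrl. As to the gate, Ly6a (which encodes Sca-1), Kit and Cd34 had log2 fold changes of -0.23, -0.04 and 0.01 (edgeR, adjusted p = 0.33, 0.84 and 0.95), while the 7 lineage antigens listed for the sort summed to 39.5 to 43.6 CPM in Ctrl and 49.7 to 64.3 CPM in cKO. Most of this was Itgam (CD11b), which was called higher and stood at 35.8 to 40.1 CPM in Ctrl and 44.2 to 58.3 CPM in cKO, while Cd3e, Cd8a and Ly6g reached at most 0.14 CPM in any library.

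Of the 9 adhesion and homing genes, Vcam1 and Selplg were lower and Itga6 was higher in cKO, and the other 6 were not called. The number of DEGs was thus 3 of 9, against the 7.67% given above for all genes. Because the 9 genes were chosen with earlier results of these data known, this comparison is a description only. The lists of related genes and of markers were chosen in the same way. Their counts of DEGs are also descriptions, to be read against 7.67%. In 4 of the 9 genes, these 3 and Cd44, no cKO value overlapped a Ctrl value, which was the case for 27.3% of all genes tested. List genes named below were mostly picked by adjusted p from these same values, so that a lack of overlap in them adds no support. An unadjusted p under 0.05 (edgeR) was reached by 5 of 9, and by 3470 of the 15184 genes tested. The median log2 fold change of the 9 genes was -0.10, against 0.00 over all genes tested. All 9 passed the filter on low counts. For a single gene, an exact permutation test of 3 mice against 3 cannot give a two-sided p below 0.1, and it gave 0.1 for each of the 4 genes without overlap.

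**Figure D1:**
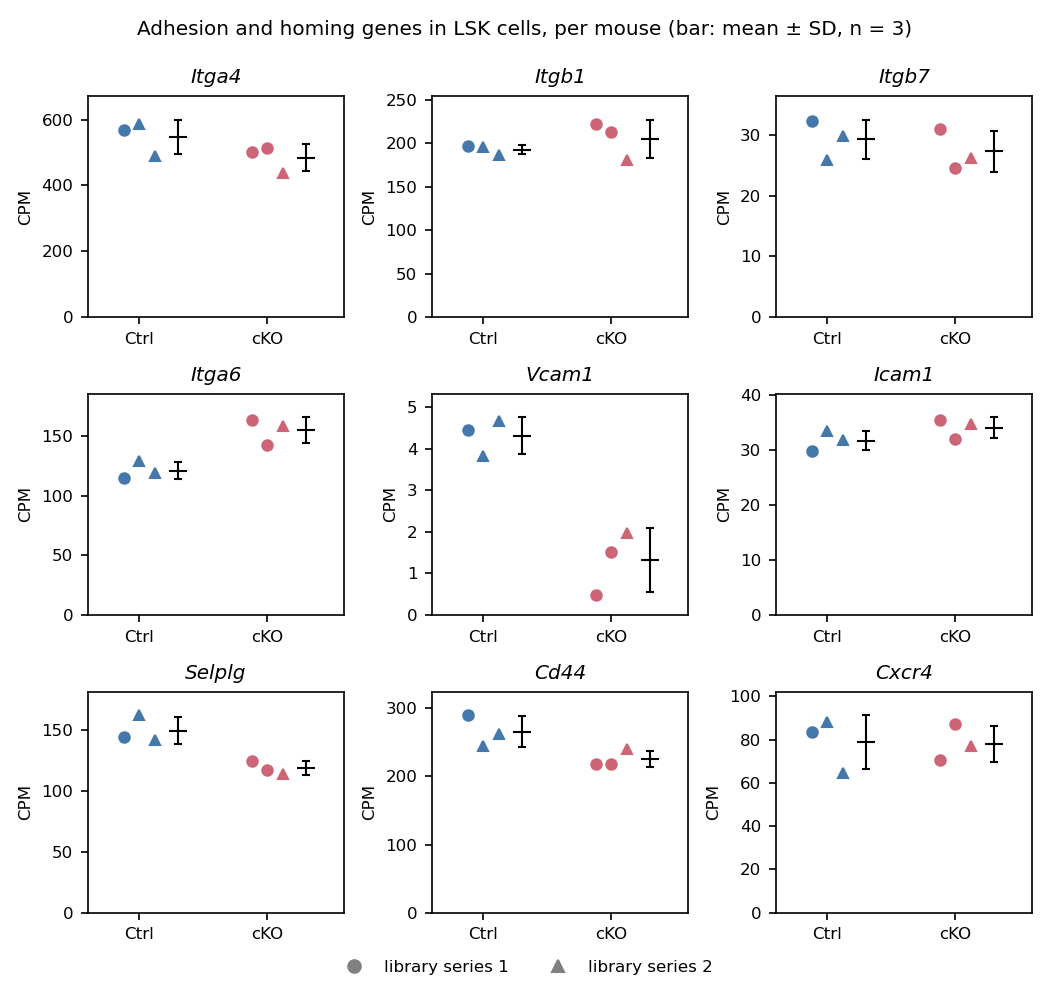
Expression of the 9 genes in CPM (vertical axis, from 0) in each mouse of the Ctrl and cKO groups, with circles for library series 1 and triangles for series 2 and black bars for the mean ± SD (n = 3). Vcam1, Itga6, Selplg and Cd44 show no overlap between the groups, and in the other 5 genes the points overlap.

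Per length of exon the order of levels was Itgb1, Cxcr4, Itga4, Cd44, Selplg, Itga6, Icam1, Itgb7 and Vcam1, with means over the 6 mice of 48.8, 43.4, 36.9, 36.2, 31.4, 15.3, 13.0, 10.3 and 0.32 CPM per kb. In 5 neighbouring pairs of this order the ranges over mice overlapped, namely each pair from Itgb1 down to Selplg, and Itga6 with Icam1. Itgb1 was above Cxcr4 in 5 of 6 mice, and Itga4 was above Cd44 in 3 of 6, so that the order within these pairs was not the same in every mouse. A gap without overlap followed Selplg, Icam1 and Itgb7. Vcam1 was the lowest of the 9 in every mouse, at a level above that of 4.23% of all genes tested, whereas Itgb1 was above 92.9% of them. Except for Vcam1 in cKO, where the coefficient of variation was 58.2%, the genes varied by 2.91% to 15.9% within a group.

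**Figure D2:**
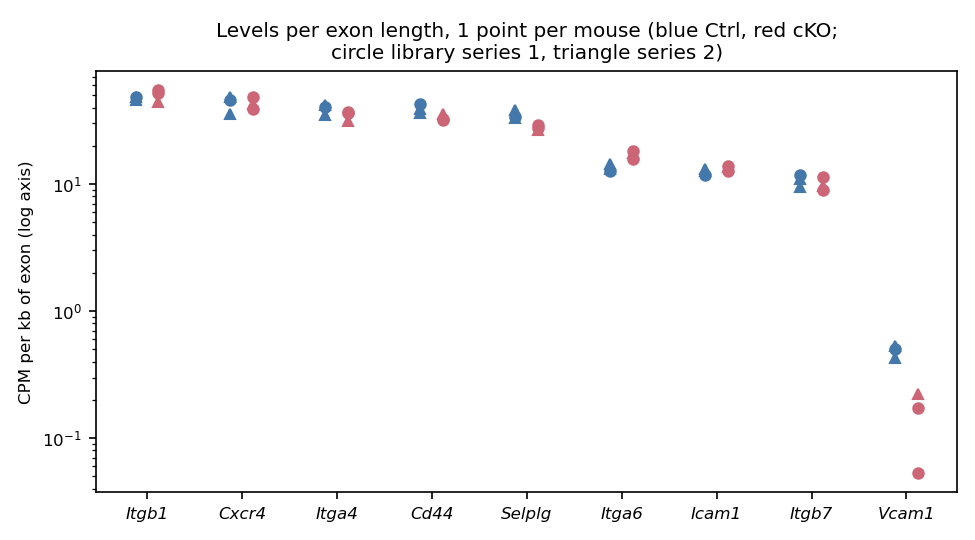
Level of each gene in CPM per kb of exon (log axis) in the 6 mice, blue for Ctrl and red for cKO, ordered by the mean. The first 5 genes lie close together between 26.7 and 54.5 CPM per kb, and Vcam1 lies at 0.053 to 0.53.

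Itga4 (ENSMUSG00000027009, chr2:79255426-79333123) encodes the alpha4 subunit and had the highest CPM of the 9 genes. It stood at 568, 587 and 488 CPM in Ctrl mice 1 to 3 and at 502, 514 and 438 CPM in cKO mice 1 to 3. The groups overlapped, with Ctrl mouse 3 below cKO mice 1 and 2. The log2 fold change was -0.18 (95% interval -0.34 to -0.01) and did not pass the test (edgeR, adjusted p = 0.20). With 13978 exon bases it is the longest of the 9 genes, and with the length trend of each library removed it passed, at -0.27 (adjusted p = 0.032).

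The beta subunits that pair with alpha4 did not pass the test. Itgb1 (ENSMUSG00000025809, chr8:128685654-128733200), which encodes beta1, stood at 197, 196 and 187 CPM in Ctrl and 223, 213 and 181 CPM in cKO. The highest 2 values and the lowest of all 6 were thus from cKO mice, and the log2 fold change was 0.09 (95% interval -0.07 to 0.25, edgeR adjusted p = 0.53). Itgb7 (ENSMUSG00000001281, chr15:102215995-102231935), which encodes the beta7 subunit of the gut-homing receptor, stood at 32.3, 25.9 and 29.8 CPM in Ctrl and 31.1, 24.6 and 26.3 CPM in cKO. These values overlapped as well, with a log2 fold change of -0.10 (95% interval -0.35 to 0.15, adjusted p = 0.69). Per kb of exon, Itgb1 made up 80.4%, 83.6% and 80.8% of both partners in Ctrl and 82.8%, 85.3% and 82.2% in cKO. The means were 81.6% ± 1.75 and 83.4% ± 1.66 (SD, n = 3), and the groups overlapped. The difference of 1.86 percentage points was not shown to differ from 0 (exact permutation test, two-sided p = 0.3, where the smallest possible is 0.1). It lay between 0.92 without cKO mouse 2 and 2.86 without Ctrl mouse 2. The partner with the CpG-rich window shown above was the more abundant in every mouse, which is a description of 2 genes.

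Itga6 (ENSMUSG00000027111, chr2:71745616-71858416), the alpha6 subunit of laminin receptors, was higher in cKO. It stood at 115, 129 and 119 CPM in Ctrl and at 164, 143 and 158 CPM in cKO. Every cKO mouse was above every Ctrl mouse. The means were 121 ± 7.08 and 155 ± 10.8 CPM (SD, n = 3), a log2 fold change of 0.36 (standard error 0.072, edgeR with Benjamini-Hochberg adjustment, adjusted p = 0.0064), or 1.28-fold. The difference in log2 CPM was 0.41 in library series 1 and 0.35 in series 2. A test against a change of at least 1.2-fold was not passed (adjusted p = 0.45). The splice forms of the alpha6 tail cannot be separated in counts per gene. In terms of both alpha subunits, the log2 ratio of Itga4 to Itga6 per kb was 1.67, 1.55 and 1.41 in Ctrl and 0.99, 1.22 and 0.84 in cKO, a pair chosen after the values had been seen and given without a test.

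Markers of stem cells moved with Itga6. Their summed level over 8 genes was 230 to 272 CPM in Ctrl and 320 to 372 CPM in cKO, and 6 of the 8 were higher. Fgd5 and Procr, both used to mark stem cells, had log2 fold changes of 1.53 and 1.43 (edgeR, adjusted p = 2.7e-06 and 0.00036). Slamf1 and Hlf, also on that list, had -0.01 and 0.07 and were not called. The part of these markers in the Itga6 result was not tested. In libraries of sorted bulk cells, more or fewer cells of a type cannot be told apart from more or less RNA per cell, which holds for each result given here.

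**Figure D3:**
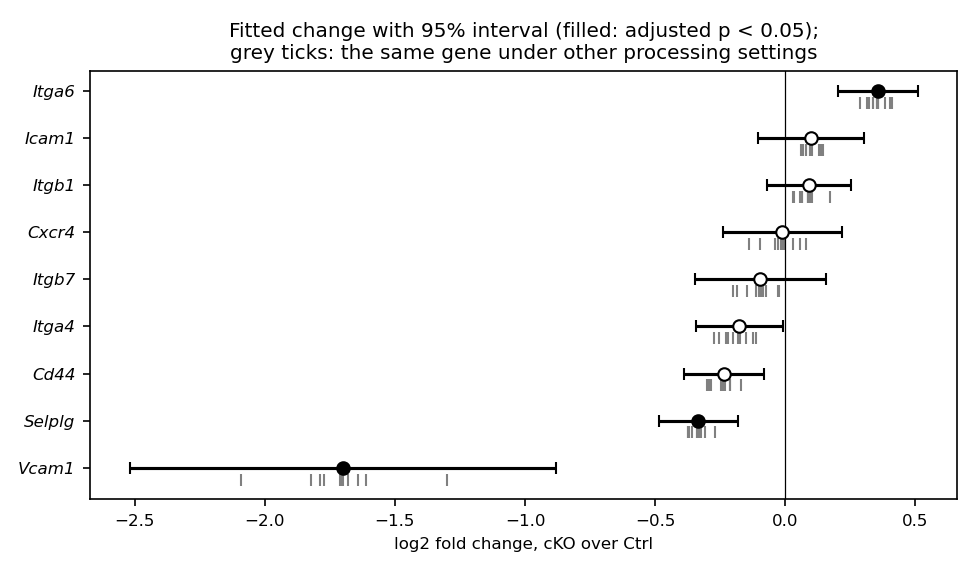
Log2 fold change, cKO over Ctrl, of the 9 genes with its 95% interval (filled circles for an adjusted p under 0.05), and grey ticks for the same gene under the other processing settings. Itga6 at 0.36 lies above 0 and Selplg at -0.33 and Vcam1 at -1.70 lie below it in all settings that gave a value, and the ticks of Cxcr4 fall on both sides.

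Vcam1 (ENSMUSG00000027962, chr3:116109949-116129688), which encodes the counter-receptor of the alpha4 beta1 integrin, had the largest change of the 9 genes. It stood at 4.44, 3.81 and 4.67 CPM in Ctrl mice 1 to 3 and at 0.47, 1.52 and 1.96 CPM in cKO mice 1 to 3. Each cKO value was thus below each Ctrl value, with cKO mouse 1 the lowest. These levels rest on 58, 80 and 73 reads in Ctrl and 7, 24 and 28 reads in cKO. By exact Poisson intervals (95%, counting error only), the lowest bound in Ctrl was 3.02 CPM and the highest in cKO 2.84 CPM. The means were 4.31 ± 0.44 and 1.32 ± 0.77 CPM (SD, n = 3), a log2 fold change of -1.70 (standard error 0.38, edgeR with Benjamini-Hochberg adjustment, adjusted p = 0.013), or 3.25-fold lower. The difference in log2 CPM was -2.20 in series 1 and -1.06 in series 2. Without Ctrl mouse 3 the log2 fold change was -1.64 and missed the threshold (adjusted p = 0.057), and over all mice left out in turn it lay between -2.09 (without cKO mouse 3) and -1.30 (without cKO mouse 1). A filter of 10 counts in all libraries left Vcam1 out, because of the 7 reads in cKO mouse 1.

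In marrow, macrophages, stroma and endothelium are among the cells known to carry VCAM-1. The sort had removed cells with lineage antigens, CD11b among them, and required Sca-1 and c-Kit. The summed level of 12 macrophage markers was 18.9 to 20.4 CPM in Ctrl and 9.31 to 10.6 CPM in cKO. Of the 9 tested, 3 were lower, namely the iron exporter Slc40a1 (log2 fold change -2.07), the secreted protein Cd5l (-2.69) and the scavenger receptor Cd163 (-1.62; edgeR, adjusted p = 0.00052, 0.0088 and 0.024). Cd163 lost its call with any 1 of 5 mice left out (adjusted p up to 0.096). The filter of 10 counts in all libraries left out Cd5l and Cd163, as it did Vcam1. The other 6 tested were not called and went in both directions, with log2 fold changes from -0.66 to 0.98. Adgre1, which encodes F4/80, was at 0.48 to 2.55 CPM over all 6 libraries and Vsig4 was at 0 in all of them. The 8 stromal markers summed to 35.4 to 42.9 CPM in Ctrl and 49.4 to 61.9 CPM in cKO, with Pdgfrb higher by 0.83 and Cxcl12 and Col1a2 at -2.08 and -1.27 on the log2 scale, and Lepr at no more than 0.095 CPM. Most of that sum was Pdgfrb, at 25.1 to 29.4 CPM in Ctrl and 43.4 to 57.2 CPM in cKO. The 8 endothelial markers summed to 26.1 to 52.7 CPM in Ctrl and 63.8 to 79.8 CPM in cKO, of which Selp, also a platelet gene, made up the most, and Cdh5 was at no more than 0.74 CPM. Kdr (log2 fold change 1.90, adjusted p = 0.0069 with edgeR) and Flt4 (1.17, adjusted p = 0.047) were higher. Kdr lost its call without cKO mouse 2 (adjusted p = 0.054) and Flt4 without any 1 of the 6 mice. Kdr was also left out by the filter of 10 counts in all libraries. Progenitor lists moved as well. The 6 markers of lymphoid-primed progenitors summed to 589 to 1080 CPM in Ctrl and 342 to 430 CPM in cKO. The 7 granulocyte-monocyte progenitor markers summed to 2864 to 3449 CPM in Ctrl and 473 to 770 CPM in cKO. The stem cell markers given above went the other way. The part of any of these cells, the sorted LSK cells included, in the Vcam1 result was not tested.

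**Figure D4:**
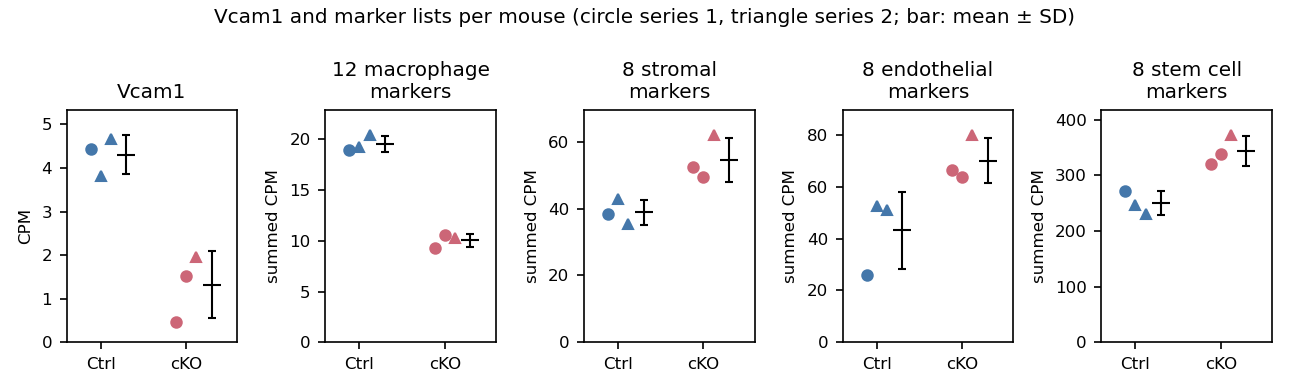
Vcam1 in CPM and the summed CPM of 4 marker lists (vertical axes, from 0) in each mouse, with black bars for the mean ± SD (n = 3). Vcam1 and the sum of the 12 macrophage markers are lower in all 3 cKO mice. The sums of the stromal, endothelial and stem cell markers are higher in all 3.

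Icam1 (ENSMUSG00000037405, chr9:21015960-21028797), which encodes a ligand of the beta2 integrins, did not pass the test. It stood at 29.9, 33.4 and 31.9 CPM in Ctrl and at 35.5, 32.0 and 34.8 CPM in cKO, and the groups overlapped. The log2 fold change was 0.10 (95% interval -0.10 to 0.30, edgeR adjusted p = 0.59). The 2 immunoglobulin-type ligands among the 9 genes thus had values of -1.70 and 0.10, and whether these differ was not tested.

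Selplg (ENSMUSG00000048163, chr5:113818536-113832644), which encodes the selectin ligand PSGL-1, was lower in cKO. It stood at 144, 162 and 142 CPM in Ctrl and at 125, 117 and 114 CPM in cKO. No cKO mouse reached the lowest Ctrl mouse. The means were 149 ± 11.01 and 119 ± 5.57 CPM (SD, n = 3), a log2 fold change of -0.33 (standard error 0.071, edgeR with Benjamini-Hochberg adjustment, adjusted p = 0.0087). The difference in log2 CPM was -0.25 in series 1 and -0.41 in series 2. Selplg missed the threshold without cKO mouse 2 (-0.32, adjusted p = 0.056) and in the test against 1.2-fold (adjusted p = 0.59).

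Cd44 (ENSMUSG00000005087, chr2:102811141-102901665), the hyaluronan receptor, did not pass the test, although its groups were apart. It stood at 290, 244 and 262 CPM in Ctrl and at 219, 218 and 240 CPM in cKO, with Ctrl mouse 2 and cKO mouse 3 close to each other. The log2 fold change was -0.23 (95% interval -0.39 to -0.08, edgeR adjusted p = 0.060). The difference in log2 CPM was -0.41 in series 1 and -0.08 in series 2. The call depended on the settings, since Cd44 passed with DESeq2 (adjusted p = 0.022), without a filter on low counts (0.017), with the length trend removed (-0.30, adjusted p = 0.013) and without Ctrl mouse 2 (-0.29, adjusted p = 0.028). The variant exons of Cd44 are not separated in counts per gene.

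Cxcr4 (ENSMUSG00000045382, chr1:128588199-128592293) differed least of the 9 genes. It stood at 83.6, 88.0 and 64.6 CPM in Ctrl and at 70.4, 87.0 and 77.0 CPM in cKO, so that all 3 cKO values lay inside the range of Ctrl. The log2 fold change was -0.01 (95% interval -0.24 to 0.22, edgeR adjusted p = 0.96). The values are compatible with any change within this interval. The sign turned with Ctrl mouse 1, Ctrl mouse 2 or cKO mouse 1 left out (0.030, 0.078 and 0.058).

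The rest of the integrin family was read from a list of 22 further subunits, of which 16 were tested. Of these, 3 were higher and 1 was lower, against 7.67% called over all genes, with a median log2 fold change of 0.20. Itgb5, a partner of alphav, stood at 23.0, 24.9 and 22.2 CPM in Ctrl and 40.5, 41.4 and 40.7 CPM in cKO (log2 fold change 0.81, standard error 0.094, edgeR adjusted p = 8.7e-05). Itgb3, which pairs with alphav or with the platelet subunit alphaIIb, stood at 25.8, 32.3 and 29.3 CPM in Ctrl and 45.9, 51.5 and 87.0 CPM in cKO (1.07, standard error 0.18, adjusted p = 0.0020). In both genes the groups were apart, as in 27.3% of all genes tested. Both kept their call in all 14 refits with other settings or fewer mice. Itgal, the LFA-1 alpha subunit that binds ICAM-1, was lower (-0.33, adjusted p = 0.016), but not without Ctrl mouse 3 or cKO mouse 2. Itgam, named after its values were seen, had 0.43 (adjusted p = 0.019) and lost its call with any 1 of 4 mice left out. Its product CD11b is also a lineage antigen of the sort. Without cKO mouse 2, 2 of the 16 subunits were DEGs.

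Of the intracellular genes that activate integrins or link them to actin, 29 of 34 were tested. Here 3 were higher and 1 was lower, against 7.67% called over all genes, with a median of 0.04. Rasgrp2, the exchange factor that switches on Rap1 upstream of integrin activation, stood at 95.8, 99.96 and 91.8 CPM in Ctrl and 75.1, 74.3 and 76.2 CPM in cKO (log2 fold change -0.35, edgeR adjusted p = 0.0051). Vcl, which encodes the actin linker vinculin, stood at 80.3, 79.7 and 76.5 CPM in Ctrl and 99.6, 94.0 and 106 CPM in cKO (0.34, adjusted p = 0.0075). The groups did not overlap in either gene, as in 27.3% of all genes tested, and both kept their call with each mouse left out. Skap2 had 0.28 (adjusted p = 0.030) and, named after its values were seen, Rap1b had 0.23 (adjusted p = 0.043), both lost with any 1 of 5 mice left out. Without Ctrl mouse 2, cKO mouse 2 or cKO mouse 3, 2 of these genes were DEGs.

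Among 18 tested genes for selectins and for the synthesis of their ligands, 4 were lower and 14 were not called. Over all genes 7.67% were called, and the median log2 fold change of the 18 was -0.06. Podxl, a sialomucin related to CD34, stood at 32.9, 29.5 and 39.7 CPM in Ctrl and 18.4, 25.2 and 21.1 CPM in cKO (log2 fold change -0.66, standard error 0.13, edgeR adjusted p = 0.0070). Every cKO value was below the Ctrl values (27.3% of all genes tested had no overlap in either direction), and the call was kept with each mouse left out. Fut7, the fucosyltransferase that completes selectin ligands such as PSGL-1, was at -0.50 on the same scale (adjusted p = 0.035). Fut7 stood at 24.1, 20.8 and 24.0 CPM in Ctrl and 19.3, 14.3 and 14.9 CPM in cKO, and lost its call with any 1 of 4 mice left out (adjusted p up to 0.16). Cd24a, named after its values were seen, had -0.27 (adjusted p = 0.041), lost with any 1 of 5 mice left out. Without Ctrl mouse 3, cKO mouse 2 or cKO mouse 3, 2 of the 18 genes were DEGs.

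Markers of granulocyte-monocyte progenitors moved with Selplg. Their summed level over 7 genes was 2864 to 3449 CPM in Ctrl and 473 to 770 CPM in cKO, and 6 of the 7 were lower, among them the granule genes Mpo (log2 fold change -2.89), Elane (-2.37) and Ctsg (-1.27; edgeR, adjusted p = 1.6e-08, 9.1e-08 and 1.2e-05). The part of these markers in the results for the selectin axis was not tested.

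**Figure D5:**
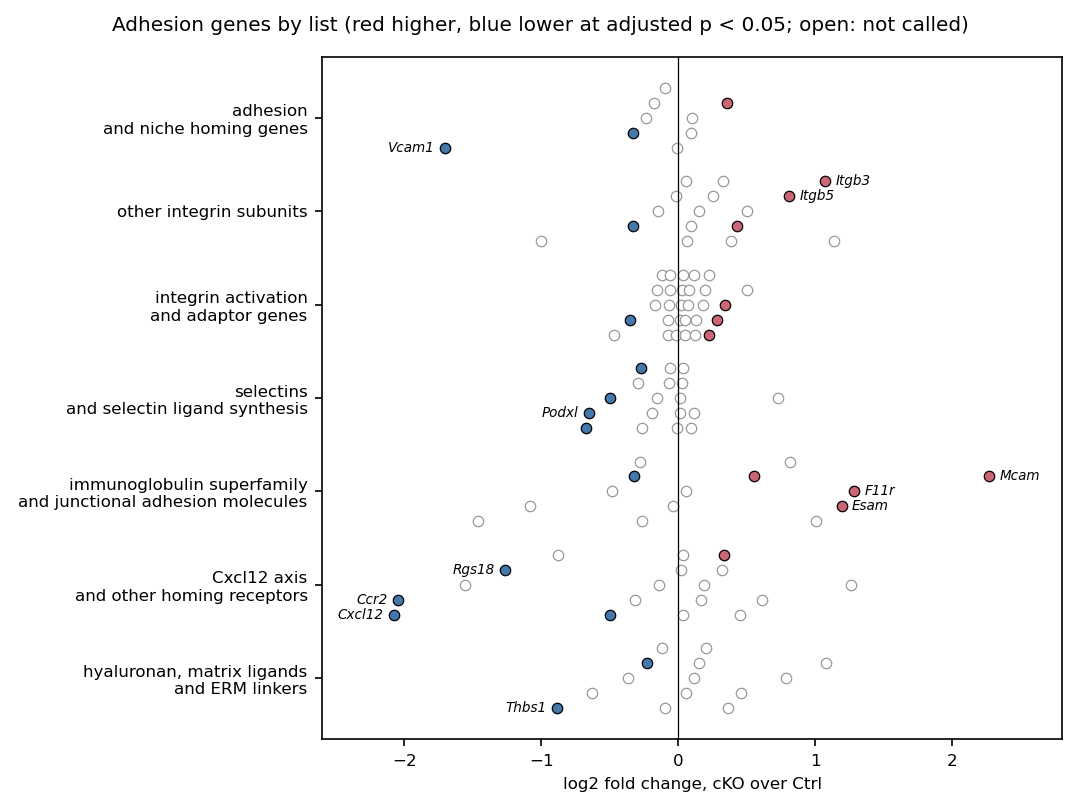
Log2 fold change, cKO over Ctrl (horizontal axis), of each tested gene in the 9 adhesion and homing genes and 6 lists of related genes, red for higher, blue for lower and open for not called, with names for the genes given in the text beyond 0.6 in size. Podxl lies to the left among the selectin genes, and F11r, Esam and Mcam lie to the right among the junctional genes.

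Of 14 junctional and immunoglobulin-type adhesion molecules tested, 4 were higher and 1 was lower, against 7.67% called over all genes. Their median log2 fold change was 0.01. Without a filter on low counts the split was 4 higher and 4 lower of 17 tested, with 1682 DEGs among 25890 genes in all. Without Ctrl mouse 1 the split was 3 and 3. F11r, which encodes the junctional molecule JAM-A, stood at 6.35, 6.20 and 5.69 CPM in Ctrl and 15.4, 14.5 and 14.4 CPM in cKO (log2 fold change 1.28, standard error 0.15, edgeR adjusted p = 9.6e-05). Esam, an endothelial adhesion molecule also found on stem cells, stood at 7.35, 9.30 and 12.3 CPM in Ctrl and 19.2, 18.6 and 28.8 CPM in cKO (1.19, standard error 0.20, adjusted p = 0.0017). Neither gene had any overlap between the groups, as was the case for 27.3% of all genes tested. Pecam1, present on endothelium and on hematopoietic cells, went the other way at -0.33 (adjusted p = 0.0054). Alcam (0.55, adjusted p = 0.025) and Mcam (2.27, adjusted p = 0.031), named after their values were seen, lost their calls with 3 and 5 of the 6 mice left out in turn, and Mcam reached at most 23 reads. Without Ctrl mouse 3, cKO mouse 2 or cKO mouse 3, 3 of these genes were DEGs. The stem cell and endothelial markers given above moved in the same direction as F11r and Esam, and their part in these results was not tested.

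Around Cxcr4, 18 of 21 genes of its ligand, its regulators and other homing receptors were tested. Of these, 1 was higher and 4 were lower, against 7.67% called over all genes, with a median log2 fold change of 0.02. Ccr2, the monocyte chemokine receptor, stood at 56.1, 50.1 and 39.3 CPM in Ctrl and 14.3, 10.4 and 10.4 CPM in cKO (log2 fold change -2.05, standard error 0.15, edgeR adjusted p = 8.1e-07). Rgs18, a regulator of G protein signaling, stood at 84.1, 73.2 and 78.8 CPM in Ctrl and 36.6, 32.3 and 29.2 CPM in cKO (-1.26, standard error 0.094, adjusted p = 9.0e-07). Both were apart between the groups, as were 27.3% of all genes tested. Cxcl12, the ligand of CXCR4, a product of stroma and also 1 of the stromal markers, stood at 2.45, 6.82 and 3.52 CPM in Ctrl and 1.34, 1.02 and 0.70 CPM in cKO (-2.08, standard error 0.41, adjusted p = 0.0054). The Cxcl12 values in Ctrl thus varied widely between mice, and the call was kept with each mouse left out (adjusted p up to 0.044). Rgs1 (-0.50, adjusted p = 0.021) and Rgs2 (0.33, adjusted p = 0.046), named after their values were seen, lost their calls with 2 and 5 of the mice left out in turn. Without cKO mouse 1, 3 of the 18 genes were DEGs. Ackr3, the other receptor for CXCL12, reached at most 0.13 CPM in any library. The summed granulocyte-monocyte markers given above were lower together with Ccr2. The summed stromal markers, mostly Pdgfrb, were higher where Cxcl12 was lower. Of the 4 stromal markers tested, however, Col1a2 was lower as Cxcl12 was, and Pdgfrb was the 1 called higher. The part of these markers was not tested.

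Of the hyaluronan, matrix and actin-linker genes that surround CD44, 14 of 20 were tested. Here 2 were lower, against 7.67% called over all genes in either direction, with a median log2 fold change of 0.09. Thbs1, which encodes the matrix protein thrombospondin-1, stood at 13.6, 9.63 and 14.01 CPM in Ctrl and 5.03, 7.75 and 7.22 CPM in cKO (log2 fold change -0.89, standard error 0.20, edgeR adjusted p = 0.014). Ezr, which encodes ezrin, a linker of CD44 to actin, stood at 179, 179 and 199 CPM in Ctrl and 156, 153 and 165 CPM in cKO (-0.23, adjusted p = 0.049). The groups of both genes were apart, as in 27.3% of all genes tested. Ezr lost its call with any mouse left out and Thbs1 without Ctrl mouse 3 or cKO mouse 1. Neither was thus a DEG without one of the latter mice, and 1 of them was without any other mouse. Has1 and Has2, 2 of the hyaluronan synthases, had no read in any library.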

How the data were processed

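The authors sequenced stranded libraries of total RNA as single reads, demultiplexed with bcl2fastq 2.17.1.14, aligned with GSNAP (2015-12-31) to mm10 (GRCm38), and used featureCounts 1.5.0 to count reads with a unique alignment on Ensembl 81 gene models, by strand and at a mapping quality of at least 1. The deposited values are raw counts per gene and the summed exon length of each gene in bases, for 45706 genes in 6 libraries. Symbols came from GENCODE M21 (98.8% of genes).

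Genes kept by filterByExpr were tested with edgeR 4.0.16 in R 4.3.3 (TMM, quasi-likelihood test, genotype as the only term, adjustment after Benjamini and Hochberg over all genes tested, threshold 0.05). Log2 CPM used a prior count of 2. The procedure was tested on simulated data. The library series were read from header numbers, and replicates are separate mice. The 9 genes and all lists were chosen with earlier results of these data known. The text names these 9 genes, Setd1b, up to 3 called genes per list by adjusted p, and list genes at or near 0. Alternatives were DESeq2 1.42.0, its size factors, other filters, the series as a covariate, removal of a length trend (loess, span 0.3), a 1.2-fold test, a threshold of 0.01, exclusion of 40 very abundant or mitochondrially encoded genes, and leaving out each mouse. Some items are not reported here. No per-sample column was left without a sample.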

Additional observations from a re-analysis of the deposited data

How the results depend on the processing

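No paired analysis was possible because the labels give mouse names and no replicate numbers shared between the groups, and do not say which of these littermates belong to 1 litter. The 1.2-fold test left 1 of the 9 adhesion and homing genes as a DEG, 341 genes in all, 2 other integrin subunits, 0 activation and adaptor genes, 1 selectin, 2 junctional, 3 Cxcl12 axis and 0 hyaluronan and matrix genes, and Setd1b at 0.46 missed it (adjusted p = 0.076 with edgeR). At a threshold of 0.01 these counts were 513 genes in all, 2 integrin, 2 activation, 2 selectin, 3 junctional, 3 Cxcl12 axis and 0 hyaluronan genes, and Vcam1 missed it. With the length trend removed 5 of the 9 genes were DEGs, of 1365 DEGs in all. Without a filter on low counts 8 junctional genes were, of 1682 in all. With the series as a covariate 1 hyaluronan gene was, of 1089 in all. With 1 mouse left out, the DEGs numbered 2 to 4 of the 9 genes, 604 to 1125 in all, 2 to 4 of the integrin, of the activation and of the selectin genes, 3 to 6 junctional, 3 to 4 Cxcl12 axis and 0 to 1 hyaluronan genes. The cause of these differences was not tested, and a refit with 1 mouse left out also has fewer samples. The change of Cxcr4 lay between -0.14 and 0.078 on the log2 scale with 1 mouse left out, and turned to 0.030, 0.078 and 0.058 without Ctrl mouse 1, Ctrl mouse 2 and cKO mouse 1. Itgb1, Itgb7 and Icam1 stayed outside the threshold in all 14 refits, each in 1 direction. With DESeq2's size factors, the series as a covariate or abundant genes left out, the same 3 of the 9 genes were DEGs. Depth limits Vcam1 most, at 7 to 80 reads.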

Other observations

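Other cell populations of the marrow were read from marker lists, most of which moved with the genotype label. The 6 markers of lymphoid-primed progenitors summed to 589 to 1080 CPM in Ctrl and 342 to 430 CPM in cKO. Dntt, the terminal transferase of lymphocyte precursors, stood at 271, 549 and 219 CPM in Ctrl and 3.62, 5.97 and 8.42 CPM in cKO (log2 fold change -5.86, edgeR adjusted p = 4.9e-08), and Il7r was at -1.42 (adjusted p = 0.014), a call lost without Ctrl mouse 2 or cKO mouse 2. Dntt made up most of the difference between the groups in the summed level of this list, and the rest of the sum overlapped between them. Flt3, at -0.31, and Satb1, at -0.20, were not called. Among 7 erythroid markers, which summed to 104 to 151 CPM in Ctrl and 14.7 to 22.2 CPM in cKO, the carbonic anhydrase Car1 had -5.72 and the erythroid factor Klf1 -2.07 (adjusted p = 5.6e-10 and 2.1e-05), while Hba-a1 was at no more than 0.74 CPM. The 10 mast cell and basophil markers summed to 59.4 to 76.9 CPM in Ctrl and 18.8 to 26.3 CPM in cKO. Of the 7 tested, 5 were lower, among them the IgE receptor chain Ms4a2 (-3.54, adjusted p = 1.5e-08) and the protease Gzmb (-4.50, adjusted p = 4.7e-05), and Tpsab1 was at 0 in all libraries. A filter of 10 counts in all libraries left Gzmb out.

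The 8 markers of B and plasma cells overlapped between the groups in their sum, at 24.4 to 36.3 CPM in Ctrl and 26.5 to 32.8 CPM in cKO, although Jchain, the joining chain of secreted antibodies, was lower (-2.80, adjusted p = 0.0044). Jchain too was left out by the filter of 10 counts in all libraries. The 6 T cell markers summed to 1.68 to 2.56 CPM in Ctrl and 3.05 to 3.93 CPM in cKO, nearly all of it Cd4, with Cd3d and Cd3e at no more than 1 read in any library. Of the 7 lineage antigens of the sort, 3 were tested, and Itgam was the 1 that was called.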
